A study of Mus musculus with 12 samples.

Results

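Csf1r, Cx3cr1, Aif1, C1qa, C1qb, C1qc, Trem2, Tyrobp, Mrc1 and Lyz2 are expressed by microglia and other macrophages and serve as markers of these cells in brain tissue. They were followed in RNA libraries of cerebellar granule cell progenitors from mouse pups at postnatal day 3 (P3). The 10 genes were chosen by name, with earlier results of these data known. Each had 1 row among the 31091 genes of the deposited table. The comparison was between 3 libraries labelled as wild type (control) and 3 libraries labelled Znhit3 conditional knockout (cKO). Znhit3 encodes a zinc-finger protein that takes part in the assembly of small nucleolar ribonucleoproteins. The Cre driver, the strain and sex of the pups, any pooling of pups and the way the progenitors were isolated were not given in the sources used here. Further libraries of both genotypes from postnatal day 6 were not analysed here.

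Microglia are the resident macrophages of the brain parenchyma. They derive from yolk sac progenitors, depend on signals through the receptor CSF1R for survival, and in the developing cerebellum take up dying cells and secrete the initiating complement factor C1q. Related macrophages with high MRC1 live at the borders of the brain, in the meninges, around vessels and in the choroid plexus. Granule cell progenitors belong to the neuroepithelial lineage and are not a source of these transcripts in textbook accounts.

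The deposited values are FPKM, fragment numbers scaled by gene length and by the counted reads of the library, and they corresponded to between 29119803 and 52961445 counted reads per library. Znhit3, the deleted gene, measured 9.15, 8.62 and 8.58 FPKM in control replicates 1 to 3 and 4.03, 4.01 and 4.57 FPKM in cKO replicates 1 to 3. It fell from 8.78 ± 0.320 FPKM in control to 4.20 ± 0.315 FPKM in cKO (SD, n = 3 each), with a limma adjusted p of 0.00024 and no overlap between the groups. Of 12 markers of granule cell progenitors, all were measured above the filter of 1 FPKM on the mean of the 6 libraries, and their summed level was 1342 to 1442 FPKM in control and 1109 to 1140 FPKM in cKO. The labels do not say whether the replicates are separate animals, so each p-value reflects only how far these 6 samples scatter, which may be technical. Differences are cKO minus control values of log2(FPKM + 1) with the standard error (SE) from limma. This scale understates the change of low genes. Adjusted p-values are Benjamini-Hochberg values from limma over 13538 genes.

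All 10 genes passed the filter and were tested, and all 10 had a higher mean in cKO. Of these, 6 rose at an adjusted p under 0.05: the macrophage mannose receptor gene Mrc1, the lysozyme gene Lyz2, the receptor genes Csf1r and Cx3cr1, and the complement genes C1qb and C1qa. None fell. Of all genes tested, 13.4% were called higher, 5.74% lower and 19.1% in either direction. In 7 of the 10 genes all cKO libraries lay above all control libraries, which was the case for 27.3% of all genes tested. The remaining genes C1qc, Aif1, Tyrobp and Trem2 did not pass. The median difference of the 10 genes was 0.30, and that of all genes tested was 0.03. In bulk FPKM, more cells of a type, more RNA per cell and less RNA from other cells cannot be told apart.

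**Figure D1:**
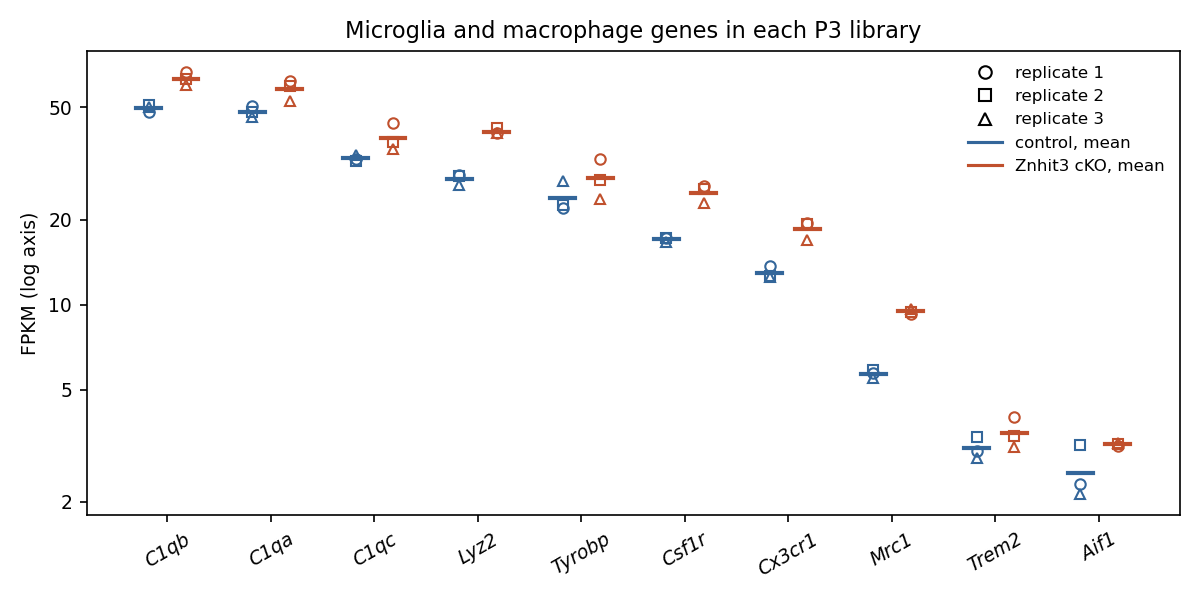
FPKM (log axis) of the 10 genes in each P3 library, ordered by the control mean. Open symbols are libraries, with 1 shape per replicate number, and short lines are group means for control (blue, n = 3) and Znhit3 cKO (red, n = 3). The libraries of the 2 groups are apart for Mrc1, Lyz2, Csf1r, Cx3cr1 and the C1q genes and overlap for Tyrobp, Trem2 and Aif1.

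The plot of FPKM by library shows that the levels of the 10 genes span more than an order of magnitude. In control, C1qb and C1qa were the most abundant at 49.8 and 48.3 FPKM, and their libraries overlapped. They were followed by C1qc at 33.0 FPKM, Lyz2 at 27.9 FPKM and Tyrobp at 23.9 FPKM, where Lyz2 and Tyrobp overlapped. Csf1r at 17.0 FPKM, Cx3cr1 at 12.9 FPKM and Mrc1 at 5.69 FPKM did not overlap with their neighbours in the order. Trem2 at 3.10 FPKM and Aif1 at 2.54 FPKM came last and overlapped. In cKO the order was the same except that the mean of Lyz2 passed that of C1qc, and those libraries overlapped. The cKO libraries of Tyrobp and Csf1r overlapped as well. Both orders rest on the deposited gene lengths, 4946 bases for Trem2 and 667 bases for Tyrobp. In control replicate 1 Trem2 had 611 reads and Tyrobp 597.

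The receptors Csf1r and Cx3cr1 differed by similar amounts. Csf1r (ENSMUSG00000024621, chromosome 18, 61233670 to 61265221, plus strand, as the deposited table gives it) encodes the receptor for the growth factors CSF1 and IL-34. It measured 17.2, 17.2 and 16.7 FPKM in control replicates 1 to 3 and 26.2, 25.7 and 23.0 FPKM in cKO replicates 1 to 3. All cKO libraries lay above all control libraries. The mean rose by 46.6%, from 17.0 ± 0.308 to 24.9 ± 1.73 FPKM (SD, n = 3 each), a log2 difference of 0.52 ± 0.06 (SE) with a limma adjusted p of 0.0013. Cx3cr1 (ENSMUSG00000052336, chromosome 9, 119730682 to 119898945, minus strand) encodes the receptor for the neuronal ligand fractalkine. Its levels were 13.7, 12.6 and 12.5 FPKM in control and 19.5, 19.3 and 17.0 FPKM in cKO, again without overlap. The mean rose by 43.6%, with a log2 difference of 0.49 ± 0.06 (SE) and a limma adjusted p of 0.0025.

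For both receptors the deposited gene spans hold parts of other genes, and whether counting used the strand was not given in the sources used here. Csf1r overlaps Hmgxb3 on the opposite strand, which measured 3.70 FPKM in control and 4.47 FPKM in cKO. The span listed for Cx3cr1 holds or touches 9 other listed genes. The most abundant are Wdr48 on the opposite strand, at 7.94 and 8.23 FPKM, and Gorasp1 on the same strand, at 5.06 and 5.92 FPKM. Reads shared with these genes cannot be told apart from those of the receptors. The other 8 genes overlapped no other listed gene.

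Mrc1 and Lyz2 had the largest differences of the 10 and the smallest spread between cKO libraries, relative to the mean, after Aif1. Mrc1 (ENSMUSG00000026712, chromosome 2, 14234203 to 14336868, plus strand) encodes the mannose receptor CD206, an endocytic receptor that is high in border macrophages and low in mature parenchymal microglia. It measured 5.71, 5.84 and 5.50 FPKM in control and 9.30, 9.45 and 9.64 FPKM in cKO. The mean rose by 66.4%, with a log2 difference of 0.65 ± 0.04 (SE) and a limma adjusted p of 0.00033. Only 0.71% of all genes tested had a higher difference. Lyz2 (ENSMUSG00000069516, chromosome 10, 117113236 to 117118226, minus strand) encodes the lysozyme of macrophages. It measured 28.8, 28.5 and 26.5 FPKM in control and 40.5, 42.1 and 40.4 FPKM in cKO. The mean rose by 46.7%, a log2 difference of 0.54 ± 0.05 (SE) with a limma adjusted p of 0.00061. Its near-identical neighbour Lyz1, with between 0 and 6 reads per library, was at or near 0 in all 6 libraries.

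The 3 genes of C1q, which initiates the classical complement pathway and is assembled from the 3 kinds of chain they encode, are listed side by side on the minus strand of chromosome 4. C1qb (ENSMUSG00000036905, 136607440 to 136613498) measured 48.3, 50.8 and 50.2 FPKM in control and 66.8, 62.7 and 60.0 FPKM in cKO. It rose by 26.9%, a log2 difference of 0.34 ± 0.05 (SE) with a limma adjusted p of 0.0043. C1qa (ENSMUSG00000036887, 136623228 to 136626114) measured 50.5, 48.0 and 46.4 FPKM in control and 61.9, 59.7 and 52.5 FPKM in cKO. It rose by 20.2%, a log2 difference of 0.26 ± 0.07 (SE) with a limma adjusted p of 0.033. C1qc (ENSMUSG00000036896, 136617115 to 136620376) measured 32.9, 32.2 and 34.0 FPKM in control and 43.8, 37.7 and 35.7 FPKM in cKO. Its log2 difference was 0.23 ± 0.07 (SE) with a limma adjusted p of 0.059. In all 3 genes the cKO libraries lay above the control libraries, and the lowest cKO library was replicate 3.

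The test results of C1qa and C1qc changed side with the setting. The difference of C1qa was between 0.21 and 0.25 in the 4 fits without 1 library that lost its call. It had an adjusted p of 0.072 without cKO replicate 1, 0.11 without cKO replicate 2, 0.090 without control replicate 2 and 0.094 without control replicate 3. It was 0.11 with upper quartile scaling and 0.098 with no filter, in a range of 0.0096 to 0.11 over 17 alternatives. C1qc, which was not called, passed without cKO replicate 3, with an adjusted p of 0.040, and in 5 alternatives that keep all libraries, with a lowest value of 0.024 in a range up to 0.20 over its 17 alternatives. C1qb passed in all 17. The authors' deposited table gave log2 fold changes of 0.21, 0.29 and 0.19 for C1qa, C1qb and C1qc with adjusted p-values of 0.023, 0.00013 and 0.052.

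Tyrobp, Trem2 and Aif1 did not pass the test. Tyrobp (ENSMUSG00000030579, chromosome 7, 30113185 to 30117010, plus strand) encodes the adaptor DAP12, which carries the activating motif for TREM2 and other receptors. It measured 22.0, 22.5 and 27.3 FPKM in control and 32.8, 27.6 and 23.7 FPKM in cKO, so the groups overlapped. The log2 difference was 0.21 ± 0.12 (SE) with a limma adjusted p of 0.24. Trem2 (ENSMUSG00000023992, chromosome 17, 48653429 to 48661175, plus strand) encodes a lipid-sensing receptor that signals through DAP12. It measured 3.03, 3.40 and 2.85 FPKM in control and 3.99, 3.42 and 3.12 FPKM in cKO, a log2 difference of 0.14 ± 0.09 (SE) with a limma adjusted p of 0.29. Neither gene passed in any alternative.

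Aif1 (ENSMUSG00000024397, chromosome 17, 35389967 to 35395044, minus strand) encodes IBA1, the actin-binding protein used to stain microglia. It measured 2.31, 3.17 and 2.13 FPKM in control and 3.17, 3.21 and 3.23 FPKM in cKO. Control replicates 1 and 3 lay well below cKO and control replicate 2 lay at the cKO level. The log2 difference was 0.26 ± 0.10 (SE) with a limma adjusted p of 0.12. Without control replicate 2 it was 0.38 with an adjusted p of 0.017. Aif1 had the fewest reads of the 10 genes, between 144 and 198 per library, while Csf1r had between 3205 and 5967. The exact permutation test, two-sided, gave p = 0.1 for the 7 genes without overlap and p = 0.2 for the other three, and 0.1 is the smallest p that 3 against 3 samples allow.

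**Figure D2:**
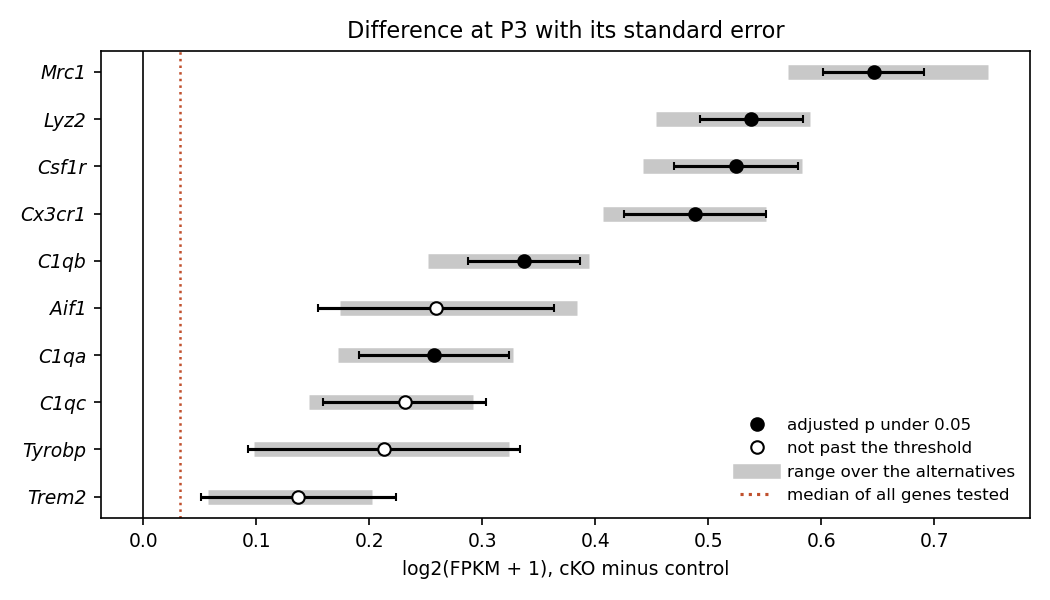
Difference of each gene between cKO and control in log2(FPKM + 1). Circles with bars are the fitted difference ± SE from 3 against 3 libraries, filled where the adjusted p was under 0.05, grey bands span the alternatives run for that gene, and the dotted line is the median of all genes tested (0.03). Values run from 0.14 for Trem2 to 0.65 for Mrc1, and no grey band reaches 0.

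The plot of differences shows a set of larger values for Mrc1, Lyz2, Csf1r and Cx3cr1 and smaller ones for the other genes. To set the genes against each other within a library, each FPKM was divided by that of C1qb, the most abundant of the 10 in control. This comparison was chosen after the values were seen, and it is given without a test. The ratio of Mrc1 to C1qb was 0.11 to 0.12 in control and 0.14 to 0.16 in cKO. The ratio of Lyz2 to C1qb was 0.53 to 0.60 in control and 0.61 to 0.67 in cKO, and that of Csf1r was 0.33 to 0.36 in control and 0.38 to 0.41 in cKO. These 3 of 9 ratios did not overlap between the groups, with cKO above. Of the ratios of all other tested genes to C1qb, 3.01% lay wholly above control in cKO and 63.8% wholly below. C1qb was itself higher in cKO, which lowers every ratio to it, so 3.01% is not a neutral background. The ratios of C1qa and C1qc to C1qb were 0.97 ± 0.065 and 0.66 ± 0.025 in control and 0.92 ± 0.039 and 0.62 ± 0.034 in cKO (SD, n = 3 each), and they overlapped. The ratio of Mrc1 to Cx3cr1, also chosen after the values were seen, was 0.42 to 0.46 in control and 0.48 to 0.57 in cKO. The share of all genes with such a ratio was not calculated. The wider lists described below had median differences of 0.32 for border macrophages and 0.36 for parenchymal microglia.

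**Figure D3:**
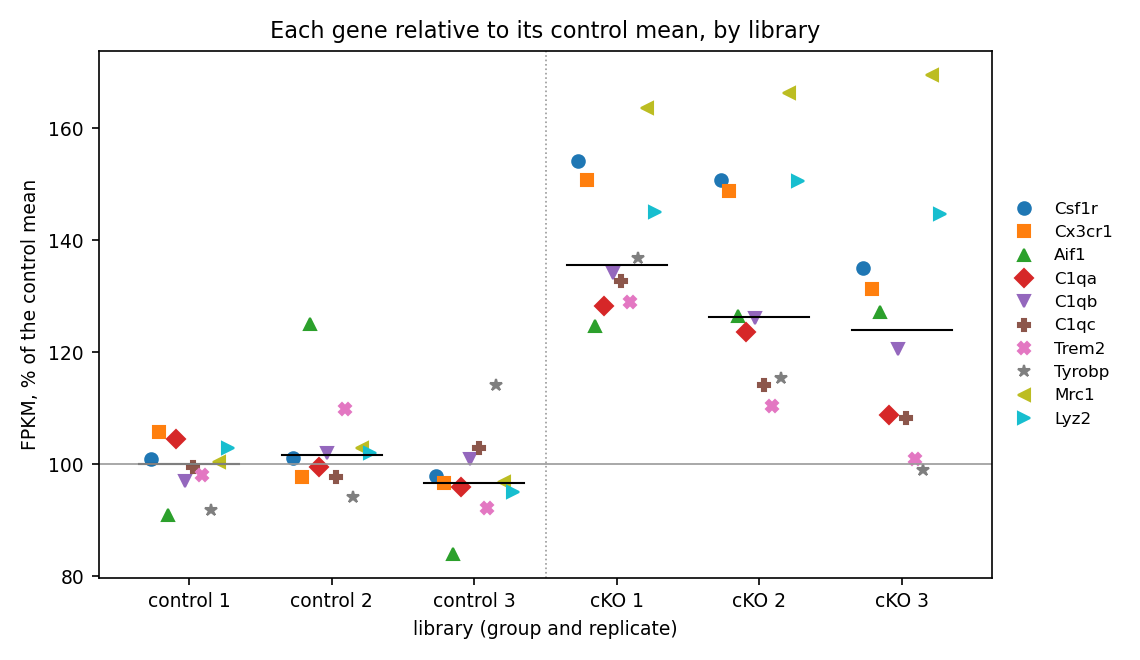
FPKM of each of the 10 genes as a percentage of its control mean, by library. Each symbol is 1 gene, black lines are medians over the 10 genes and the grey line marks 100%. Mrc1 lies at 164% to 170% in the cKO libraries, whereas Tyrobp and Trem2 are near 100% in cKO replicate 3.

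The cKO libraries differed among themselves in the plot of percentages. The median over the 10 genes was 135% of the control mean in cKO replicate 1, 126% in replicate 2 and 124% in replicate 3, against 96.7% to 102% in the control libraries. A set of 7 genes (Csf1r, Cx3cr1, C1qa, C1qb, C1qc, Trem2 and Tyrobp) was highest in replicate 1 and lowest in replicate 3, an arrangement found in 21.3% of all genes tested. In the lists described below it held for 70.0% of tested oligodendrocyte, 60.0% of GABAergic and 50.0% of granule progenitor markers. In the lists of other cell types it was lower, at 30.8% for endothelium, 11.1% for choroid plexus and ependyma and 0.0% for lymphocytes and mast cells. The myeloid lists ranged from 0.0% of monocyte and neutrophil genes to 50.0% of signalling genes. Parenchymal microglia genes stood at 41.7%, border macrophage genes at 37.5%, genes shared by most myeloid cells at 23.8% and myeloid transcription factor genes at 14.3%. Mrc1 stood at 164%, 166% and 170%, and Lyz2 at 145%, 151% and 145%. Tyrobp ranged from 137% in replicate 1 to 98.9% in replicate 3. Replicate 3 had the fewest counted reads of the 6 libraries. The part of depth in this arrangement was not tested.

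Other genes of microglia and macrophages were mostly higher too. Of 12 tested genes enriched in parenchymal microglia, 8 rose, none fell and 4 did not pass, with a median difference of 0.36. Fcrls, which encodes an Fc receptor-like protein of microglia, measured 28.4, 25.2 and 24.8 FPKM in control and 37.6, 37.8 and 38.8 FPKM in cKO, with a log2 difference of 0.53 and a limma adjusted p of 0.0013. P2ry12, a purinergic receptor gene of ramified microglia, rose from 10.5 ± 0.668 to 16.1 ± 1.83 FPKM (SD, n = 3). Tmem119 and P2ry13, named here after their values were seen, measured 3.21 and 3.63 FPKM and 3.70 and 5.00 FPKM in control and cKO and did not pass, with adjusted p-values of 0.31 and 0.092. Sparc and Cst3 of this list are also expressed by other brain cells.

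Of 8 tested genes enriched in border macrophages, 5 rose, none fell and 3 did not pass, and 5 listed genes were under the filter. Their median difference was 0.32. Stab1, a scavenger receptor gene, measured 5.92, 6.10 and 5.92 FPKM in control and 10.1, 9.94 and 9.08 FPKM in cKO, with a log2 difference of 0.61 and a limma adjusted p of 0.00057. Lyve1, a hyaluronan receptor gene, rose from 6.88 to 9.81 FPKM, and Dab2, which encodes an endocytic adaptor, rose from 7.44 to 10.3 FPKM. Stab1, Lyve1 and Dab2 are known in endothelium or other cells as well. Pf4, a chemokine gene named after its value was seen, measured 14.0 ± 0.553 and 16.4 ± 4.50 FPKM (SD, n = 3), with overlapping groups and an adjusted p of 0.41.

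Among 21 tested genes shared by most myeloid cells, 13 rose and none fell, with a median difference of 0.33. The pore-forming protein gene Mpeg1 measured 10.5, 9.57 and 9.23 FPKM in control and 15.6, 15.6 and 16.2 FPKM in cKO, a log2 difference of 0.64 with a limma adjusted p of 0.00057. Lcp1, an actin-bundling protein gene of leukocytes, rose from 3.38 to 5.04 FPKM, and Laptm5, a lysosomal membrane protein gene, rose by 34.7% to 17.5 FPKM. Of 7 tested transcription factor genes of the myeloid lineage, 5 rose, with a median of 0.37, and 3 did so without control replicate 2 or with no filter. The list's median was 0.60 with a filter of 5 FPKM. Spi1, which encodes the lineage factor PU.1, measured 3.27, 3.12 and 3.35 FPKM in control and 4.65, 5.07 and 4.80 FPKM in cKO, a log2 difference of 0.46 with a limma adjusted p of 0.0019. Cebpa, which encodes another factor of myeloid differentiation, rose from 4.37 to 7.12 FPKM.

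Ligands that act on microglia changed in part. Of 10 tested ligand genes 4 rose and none fell, with a median of 0.09 that was 0.01 with upper quartile scaling. Csf1, a ligand of CSF1R, rose from 6.29 ± 0.410 to 8.93 ± 0.460 FPKM (SD, n = 3), with a limma adjusted p of 0.0029. Il34, which encodes the other ligand of CSF1R, stood at 2.28 and 1.94 FPKM (adjusted p = 0.23). Cx3cl1, which encodes fractalkine, stood at 1.58 and 1.50 FPKM (adjusted p = 0.77). Both were named after their values were seen. Tgfb1, which supports microglial identity, rose from 2.19 to 3.62 FPKM, and Gas6, a bridging ligand for the uptake of dying cells, rose from 18.8 to 23.7 FPKM.

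Of 10 tested signalling genes downstream of TREM2, DAP12 and CSF1R, 3 rose and none fell. These were the lipid phosphatase gene Inpp5d (1.44 to 2.40 FPKM), the kinase gene Lyn (4.17 to 6.64 FPKM) and the phosphatase gene Ptpn6 (3.07 to 3.83 FPKM). Of 8 tested genes grouped here as complement genes outside C1q, 3 rose. Among them were Cd93, which endothelium also expresses (6.00 to 11.0 FPKM), and the receptor gene C3ar1 (1.92 to 3.32 FPKM). C3, C2, C1ra, C1s1 and C5ar1 were under the filter, and C3 measured 0.18 and 0.16 FPKM. The medians of the signalling and complement lists were 0.23 and 0.18. That of the signalling list was 0.09 with a filter of 5 FPKM, and that of the complement list was -0.01 with no filter.

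Of 16 tested genes linked to phagocytic or axon-tract microglia, 10 rose and 1 fell, with a median of 0.28, and 6 rose without cKO replicate 2. The lipid exporter gene Abca1 rose from 8.52 ± 0.202 to 13.8 ± 0.552 FPKM (SD, n = 3), the phagocytic receptor gene Axl rose from 7.75 to 10.0 FPKM and the scavenger receptor gene Cd36 rose from 1.19 to 2.45 FPKM. Bulk libraries do not show whether these transcripts came from microglia or from other cells. The tetraspanin gene Cd63, the member that fell, measured 128 and 112 FPKM, and it kept this call in only 1 of the 6 fits without 1 library, the one without control replicate 3. Of 5 tested cytokine, chemokine and NF-kB feedback genes none passed limma's threshold, although 2 had an unadjusted p under 0.05, and 1 gene, the chemokine gene Ccl3, passed with voom. With TPM scaling 2 passed, and 1 passed without cKO replicate 2 and 1 without control replicate 2. Nfkbia, the most abundant, stood at 21.7 and 24.5 FPKM (adjusted p = 0.059). Il1b measured 0.33 and 0.36 FPKM and Tnf 0.64 and 1.06 FPKM, both under the filter. Of 5 tested monocyte and neutrophil genes none passed limma's threshold or that of voom, 1 had an unadjusted p under 0.05 and 1 passed with array weights. The median difference of this list was 0.14, with 4 of the 5 genes above 0. S100a9, the most abundant, was the one below 0 and stood at 10.3 and 9.40 FPKM (limma adjusted p = 0.36). The blood monocyte gene Ccr2, under the filter, measured 0.062, 0.092 and 0.053 FPKM in control and 0.205, 0.132 and 0.173 FPKM in cKO, on 17 to 52 reads per library and without overlap. Its adjusted p with no filter was 0.11. Ly6c2 was at most 0.226 FPKM, and its groups overlapped. Of lymphocyte and mast cell genes only Kit and Cd79b passed the filter, and Kit, which other brain cells also express, rose from 10.9 to 13.8 FPKM.

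**Figure D4:**
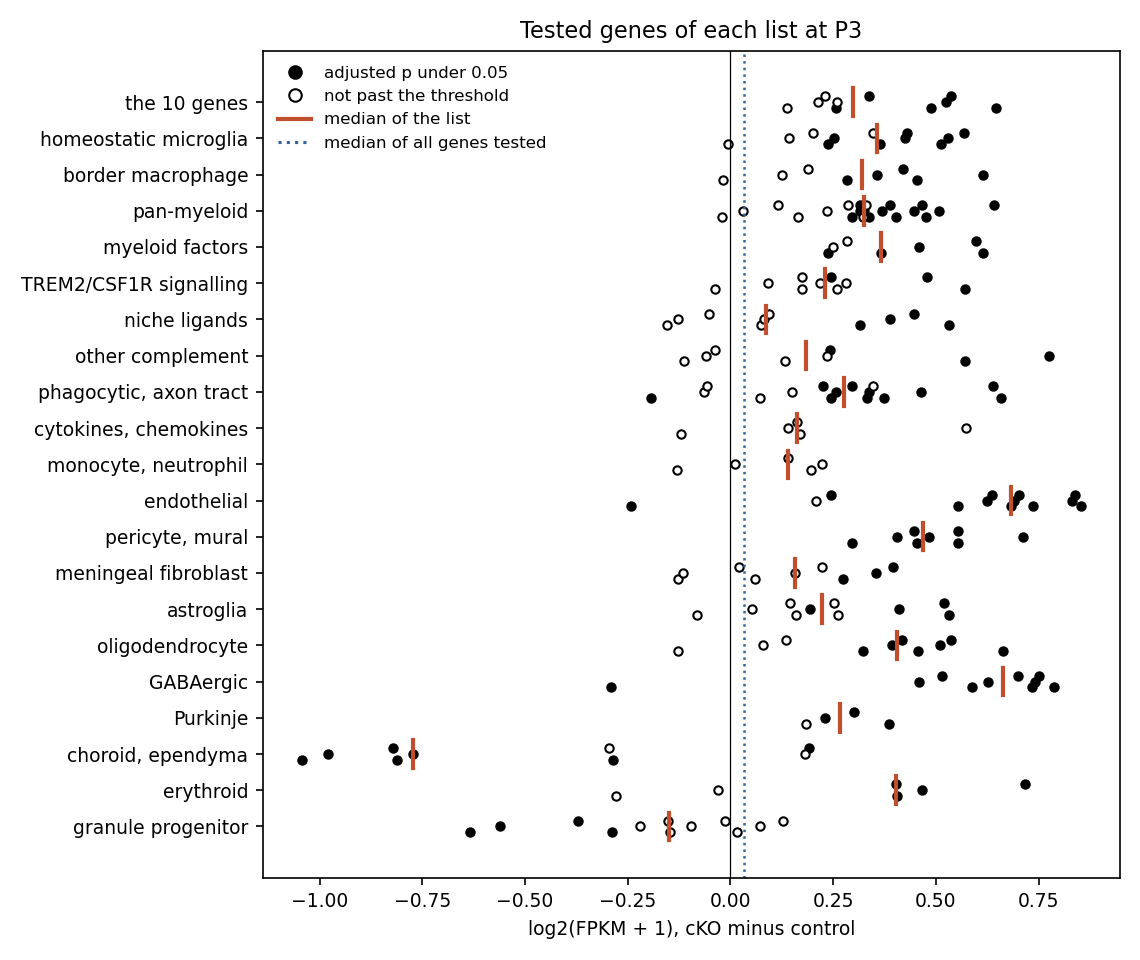
Differences of the tested genes of each list in log2(FPKM + 1), cKO minus control, without the lymphocyte and mast cell list. Each circle is 1 gene, filled where the adjusted p was under 0.05, red bars are list medians and the dotted line is the median of all genes tested (0.03). The upper rows are the myeloid lists and related genes, such as ligands that act on microglia, with medians of 0.30 to 0.37 in the upper 5. The lower rows are markers of other cell types, with medians from -0.77 for choroid plexus and ependyma to 0.68 for endothelium.

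Markers of further cell types moved with genotype in the same libraries, as the plot by list shows. Of 13 endothelial markers 11 rose, among them Tie1 (9.11 to 17.1 FPKM), and Slco1a4 fell, a call lost in each fit without 1 library, with a median of 0.68 and a summed level of 147 to 158 FPKM in control and 256 to 270 FPKM in cKO. All 8 tested markers of pericytes and smooth muscle rose (summed level 78.7 to 79.5 FPKM in control and 115 to 118 FPKM in cKO), among them Rgs5 (17.3 to 28.9 FPKM). Of 10 markers of GABAergic neurons and their progenitors 9 rose and Lhx1 fell (110 to 122 and 153 to 175 FPKM), with Gad1 at 6.28 and 11.2 FPKM, and of 4 tested Purkinje cell markers 3 rose. Only 1 Purkinje marker did so without cKO replicate 1 or 3 or control replicate 2 or 3, taken singly. Oligodendrocyte lineage markers were called higher in 7 of 10 (143 to 150 and 177 to 195 FPKM), astroglial markers in 4 of 10 (859 to 884 and 903 to 933 FPKM) and meningeal fibroblast markers in 3 of 9. Of 6 erythroid genes 4 rose (1229 to 1494 and 1674 to 1905 FPKM), and 2 did so without control replicate 2. Of 9 markers of choroid plexus and ependyma 6 fell (1405 to 1491 and 691 to 768 FPKM). Otx2 rose, a call kept in 1 of the 6 fits without 1 library, the one without control replicate 3. The list holds the transthyretin gene Ttr at 1370 and 665 FPKM. Of the 12 granule progenitor markers, Mfap4, Barhl1, Pax6 and Neurod1 fell, with Mfap4 at 327 and 211 FPKM. The other 8 did not pass. Their differences ran from -0.22 for Zic2 to 0.13 for Ptch1, with Atoh1 at -0.09, genes named after their values were seen. None of the marker genes in the table was at 0 in all libraries. The summed level of the 10 genes was 224 FPKM in each control library and 268 to 308 FPKM in cKO. The part of the other cell types in the result was not tested.

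Sex-linked transcripts also differed between the groups. Xist, the RNA of the inactive X chromosome, measured 50.2 to 56.4 FPKM in control and 23.7 to 24.6 FPKM in cKO, and the Y-linked gene Ddx3y measured 4.92 to 5.64 and 10.5 to 13.8 FPKM. None of the 10 genes lies on X or Y. The part of sex in the result was not tested.

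Outside all these lists, the 10 genes with profiles most like the mean of the microglia and macrophage genes had a Pearson r between 0.993 and 0.997 over the 6 libraries, among 10499 genes compared. These profiles all hold the step between the 2 groups, and the likeness is given as a description. The first was Ppp2r5a, a regulatory subunit gene of protein phosphatase 2A, with 5.14, 5.38 and 5.17 FPKM in control and 6.60, 6.36 and 6.01 FPKM in cKO. Kcnj10, a glial potassium channel gene, measured 8.73 to 8.88 and 10.5 to 11.5 FPKM. Slc6a11, a GABA transporter gene of astroglia, measured 15.7 to 15.9 and 20.5 to 23.0 FPKM. The others were Vgll4, Smad3, Gfra1, Adcy3, Afap1l1, Tmed10 and Notch2.

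Promoters are shown for Mrc1, which had the largest difference, Lyz2, the second, and C1qb, the most abundant gene. PU.1 binds purine-rich sites with the core GAGGAA in myeloid promoters, and its gene Spi1 rose with these genes. RefSeq gave a promoter window for 7 of the 10 genes in GRCm38.p6, whose coordinates do not match the positions above. The deposited span of C1qb ends at 136613498, whereas its window begins at 136886201. The 250 bases before each start are printed 5′ to 3′ on the strand of the gene, with each match to GAGGAA, or to TTCCTC for the opposite strand, in capitals. Mrc1 (chr2:14229164-14229413, plus strand) held 3 matches, all on the opposite strand, which begin 180, 167 and 35 bases before the start. C1qb (chr4:136886201-136886450, minus strand) held 1 match, 30 bases before the start. Lyz2 (chr10:117282273-117282522, minus strand) held none.
Mrc1: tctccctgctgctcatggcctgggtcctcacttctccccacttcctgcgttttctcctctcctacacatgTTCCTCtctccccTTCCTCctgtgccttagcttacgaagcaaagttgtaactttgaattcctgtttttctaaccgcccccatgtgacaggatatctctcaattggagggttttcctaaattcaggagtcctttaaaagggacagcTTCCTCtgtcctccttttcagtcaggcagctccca
C1qb: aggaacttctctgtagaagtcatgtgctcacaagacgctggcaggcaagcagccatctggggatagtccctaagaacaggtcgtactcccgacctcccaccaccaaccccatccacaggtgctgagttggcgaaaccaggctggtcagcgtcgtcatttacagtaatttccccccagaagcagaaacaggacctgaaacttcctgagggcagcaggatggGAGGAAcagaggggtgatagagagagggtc
Lyz2: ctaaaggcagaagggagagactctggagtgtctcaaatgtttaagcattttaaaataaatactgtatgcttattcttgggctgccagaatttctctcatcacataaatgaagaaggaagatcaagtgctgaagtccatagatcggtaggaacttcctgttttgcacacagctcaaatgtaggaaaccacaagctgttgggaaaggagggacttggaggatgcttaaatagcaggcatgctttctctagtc

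Of the 7 windows, 5 held at least 1 match, in Aif1, C1qb, C1qc, Trem2 and Mrc1, whereas those of Cx3cr1 and Lyz2 held none. Over all 32851 windows of the same length, 23.3% held a match. Of the 5 genes with a match, C1qb and Mrc1 rose and the other three did not pass the test, and both genes without a match rose. A match of 6 letters describes the sequence and does not show binding.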

How the data were processed

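RNA was poly(A)-selected and sequenced paired-end, per the labels' protocols. Without role or order, the submitters' processing notes list build mm10, DESeq2, edgeR, StringTie 2.1.6, HISAT2 2.2.1 and cutadapt 1.9. The annotation and the use of strand were not given in the sources used here. The authors deposited FPKM per library, their log2 fold change and an adjusted p-value. Positions are printed as deposited, their build is not stated in the table, and they do not match the GRCm38.p6 promoter windows. Columns with a prefix absent from the labels were taken as cKO, since the remaining columns carry the prefix WT and the labels hold just these 2 groups at P3. FPKM multiplied by the deposited gene length gave whole reads, within 0.02 reads, for 100.0% of values. This gave the read numbers. In a gene of 1 kb, a floor of 3 reads equals 0.0566 to 0.103 FPKM, for counting error only.

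Genes whose average over the 6 libraries reached 1 FPKM were tested with limma 3.58.1 in R 4.3.3 on log2(FPKM + 1), with an intensity trend, and called at an adjusted p under 0.05. The fit was tested on simulated data. Alternatives were pseudocounts of 0.1 and 0.5, no filter or one of 5 FPKM, other scalings, limma without trend, array weights, voom on the recovered reads, a replicate block and leaving out each library. All pairs of replicates differed by more than counting noise (chi-square per degree of freedom 4.38 to 9.71). The 10 genes, the other lists and the tests were chosen with earlier results of these data known. From each list the text names up to 3 called genes by smallest p, or the most abundant tested gene, and others where it says so or where a count rests on them. Some genes that this rule picks are not reported here. It also names the 10 other genes, among those averaging 2 FPKM or more, whose profiles were most like that of the mean of the microglia and macrophage genes.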

Additional observations from a re-analysis of the deposited data

How the results depend on the processing

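The 10 genes had positive differences in every alternative that tested them, and between 5 and 7 of them were called. Mrc1, Lyz2, Csf1r, Cx3cr1 and C1qb passed in all 17 alternatives. Aif1 and Trem2 were not tested with a filter of 5 FPKM. Znhit3 kept its fall and its call throughout. The number of called genes, 2590 as reported, was 1271 with no filter and ranged from 1207 to 2195 over the fits that left out 1 library. With the replicate number as a block it was 1542, and the block changed no call among the 10 genes. Same-numbered libraries did not deviate together (correlations of -0.02, 0.04 and -0.10), and differently numbered ones reached 0.11. With 3 libraries per group these values cannot decide whether the numbers pair the libraries. The share of called genes that were higher, 70.0% as reported, was 81.7% with TPM scaling, 57.1% with quantile normalization, 50.8% with voom and 34.1% with upper quartile scaling. Of the results for single genes under the alternatives, 1063 kept their direction and call, 51 lost the call, 9 gained it and 0 reversed. List counts stayed within 1.5 times in 643 cases and moved further in 71. With a filter of 5 FPKM, which leaves fewer genes to test, the genes called higher were 7 pan-myeloid, 5 phagocytic, 3 border macrophage, 1 factor, 1 signalling, 4 pericyte and 0 Purkinje, and 3 choroid plexus genes were called lower. With no filter, 8 pan-myeloid, 3 factor, 1 erythroid and 1 Purkinje gene were called higher. Array weights called 5 signalling, 5 meningeal and 7 astroglial genes higher, and limma without trend called 5 signalling genes. The replicate block called 2 erythroid genes. Quantile and upper quartile scaling each called 1 Purkinje gene higher, and upper quartile scaling and voom each called 7 granule progenitor genes lower. List medians moved by over 1.5 times for the monocyte list (-0.13 with a filter of 5 FPKM), choroid plexus (-0.29 with the same filter), Purkinje cells (0.16 with no filter) and, with upper quartile scaling, the cytokine (0.09), meningeal (0.07), astroglial (0.14) and granule progenitor (-0.23) lists. Aif1 had the fewest reads of the 10 genes.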

Other observations

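Some myeloid genes lay under the filter of 1 FPKM and so were not tested in the report. They are described here by their values and by limma with no filter on low values. Itgax, which encodes the integrin CD11c, measured 0.46, 0.37 and 0.45 FPKM in control and 0.90, 0.76 and 0.93 FPKM in cKO, on 58 to 163 reads per library, with an adjusted p of 0.041. Nos2, the gene of inducible nitric oxide synthase, measured 0.50, 0.46 and 0.53 FPKM in control and 0.88, 0.97 and 0.84 FPKM in cKO, with an adjusted p of 0.053. Ptprc, the gene of the leukocyte antigen CD45, measured 0.36, 0.26 and 0.33 FPKM in control and 0.48, 0.53 and 0.59 FPKM in cKO, with an adjusted p of 0.10. The cKO libraries lay above the control libraries in each of these genes. They were picked after their values were seen from 37 such genes, of which Itgax alone passed with no filter. All cKO libraries lay above control in 13 of the 37 genes and below control in 2, C1ra and Lcn2. Of all 17553 genes under the filter, many with few reads, 6.97% lay wholly above control and 95 passed with no filter.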
